A study of Saccharomyces cerevisiae with 6 samples.

Results

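The AOX strain is the yeast CEN.PK113-7D with the plasmid pYX212 carrying AOX, set here against the same strain with pYX212 without an insert, the control. Both were grown in chemostats at the critical dilution rate in minimal medium with 10 g/L glucose as sole carbon source. The 2 arrays titled pYX212-AOX and the 2 titled pYX212 were chosen from the 6 Affymetrix Yeast Genome 2.0 arrays of the series. The other 2 carry pYX212-NOX and enter as a second oxidase strain and in the estimate of spread. A chemostat holds growth at a set rate, and the critical dilution rate is known as the rate at which yeast begins to form ethanol. CEN.PK113-7D is a haploid laboratory strain, and pYX212 is known as a multicopy plasmid marked with URA3 in which the TPI1 promoter drives the insert. The labels state neither the organism that AOX came from nor a dilution rate in numbers, so that unequal growth of the strains cannot be told apart from the transgene. Nor do they say if the 2 replicates are separate cultures. The p-values therefore rest on the scatter of these arrays, which may be technical.

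Alternative oxidase is a di-iron enzyme of the inner mitochondrial membrane that plants and many fungi carry and baker's yeast lacks. It passes electrons from ubiquinol straight to oxygen, so that they bypass complexes III and IV and move no protons at those steps. Yeast takes up iron through siderophores and through a reductive route at the cell surface, and the activator Aft1 turns on both when iron-sulfur cluster synthesis or iron runs short. The activator Zap1 does the same for zinc uptake genes and Mac1 for copper uptake genes.

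Signals were read as probe set intensities, on a linear scale in arbitrary units, as the authors deposited them. Differences are AOX minus control on the scale log2(intensity + 16) after quantile normalization, each with limma's standard error (SE, n = 2 arrays a strain). Probe sets were called at a limma adjusted p below 0.05, Benjamini-Hochberg adjusted over 5498 S. cerevisiae probe sets. Limma called 140 of them higher in AOX (2.55%) and 57 lower (1.04%), 197 in all (3.58%), and 753 had an unadjusted p below 0.05. A probe set was counted as flat where the 95% confidence interval of its difference lay wholly between -0.5 and 0.5, and 5012 were flat (91.2%), 36 of which were also called. Over all probe sets the median difference was -0.0024 and the 5th and 95th percentiles were -0.18 and 0.26. Of the calls, 24 higher and 8 lower differed by 2-fold or more, and no uncalled probe set did. The median called difference was 0.58 among those higher and -0.60 among those lower.

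The 6 arrays had median intensities of 511 to 543 over the S. cerevisiae probe sets. Between 94.7% and 96.9% of those probe sets exceeded the 95th percentile of 1747 probe sets that target a different organism, taken here as background. That percentile was 39.0 and 34.5 on the AOX arrays and 37.9 and 39.3 on the control arrays. The root mean square log2 difference was 0.137 between the AOX arrays, 0.0518 between the control arrays and 0.211 to 0.237 between AOX and control arrays. The control arrays were thus the closest pair of all, and the NOX arrays differed by 0.203. Hybridisation controls had a mean log2 intensity of 10.99 on NOX replicate 1 and of 9.45 to 9.86 on the remaining arrays. Leaving out either NOX array gave 363 calls between AOX and control. No probe set for AOX itself was identified, so its transcript was not measured here. Markers of mating type a, which this haploid strain is known to have, were well above background, with STE2, the alpha-factor receptor gene, at 4368 and 4014 on AOX arrays and 3817 and 3770 on control arrays. Limma called 0 of 7 mating type a markers (3 at an unadjusted p below 0.05) and 0 of 4 mating type alpha markers (1 at an unadjusted p below 0.05). STE3, the a-factor receptor gene of alpha cells, stood at 146 and 134 on AOX arrays and 139.8 and 139.3 on control arrays.

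**Figure D1:**
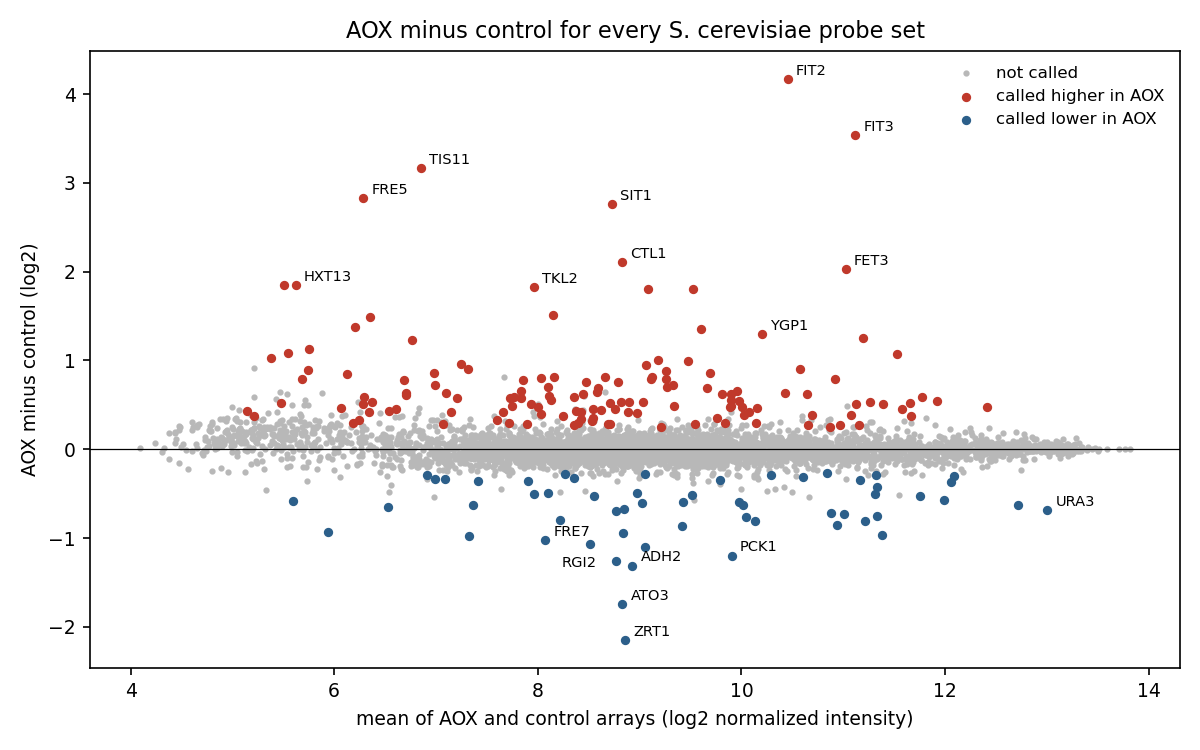
Each point is 1 of 5498 probe sets, with its mean over the AOX and control arrays on the x axis and its AOX minus control difference on the y axis, both on the log2 scale of normalized intensity. FIT2 at 4.17 and FIT3 at 3.54 stand at the top, ZRT1 at -2.14 at the bottom, and the grey points that limma did not call form a band around 0.

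The largest rises in AOX were those of FIT2 and FIT3, genes of siderophore iron uptake, followed by the iron regulator gene TIS11, the reductase gene FRE5 and the siderophore transporter gene SIT1. Of 7 measured genes of the siderophore route, 6 rose, none fell and 1 was not called. Over all probe sets 2.55% rose and 1.04% fell. The median difference of the route was 1.81, against -0.0024 over all probe sets. FIT2 and FIT3 encode mannoproteins that hold iron-siderophore complexes in the cell wall. FIT2 read 6108 and 5804 on AOX arrays, against 307 and 324 on control arrays. FIT3 read 7824 and 7282 on AOX arrays, against 637 and 638 on control arrays. For both genes the AOX arrays lay far above the control arrays and near the top of the range of the array. FIT2 rose by 4.17 (SE 0.10, 18.02-fold; limma adjusted p = 3.02e-05) and FIT3 by 3.54 (SE 0.15, 11.6-fold; adjusted p = 0.000296). The third cell wall gene, FIT1, was dimmer, at 113 and 116 on AOX arrays and 68.3 and 73.2 on control arrays, and rose by 0.61 (SE 0.08).

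The siderophore transporters of the plasma membrane and endosome differed among themselves. SIT1, which imports ferrioxamine, read 1156 and 1020 on AOX arrays, against 147 and 145 on control arrays, and rose by 2.76 (SE 0.13, 6.77-fold). ARN1, which imports ferrichrome, read 1049 and 950.2 on AOX arrays, against 264 and 286 on control arrays, a rise of 1.81 (SE 0.08). ENB1, the enterobactin transporter gene, read 1395 and 1338 on AOX arrays, against 369 and 386 on control arrays, and also rose by 1.81 (SE 0.12). In all 3 the AOX arrays lay above the control arrays by far more than the arrays of a strain differed. ARN2, whose product takes up triacetylfusarinine, was not well above background on any of the 4 arrays and had no measured fold. Limma called 5 of the 7 genes without either AOX array and without either control array, and all 6 calls held without either NOX array. FIT1 was the call that ended, with an adjusted p of up to 0.124 over the alternatives.

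The reductive route rose with it. Surface reductases first turn ferric into ferrous iron, and the oxidase Fet3 and the permease Ftr1 then carry it in. Of 13 measured genes 8 rose and none fell, against 2.55% and 1.04% of all probe sets, with a median of 0.72. FET3 read 4323 and 4108 on AOX arrays, against 1018 and 1019 on control arrays, and rose by 2.03 (SE 0.07, 4.07-fold; limma adjusted p = 0.000229). FTR1 read 3682 and 3662 on AOX arrays, against 1521 and 1502 on control arrays, a rise of 1.25 (SE 0.05). CCC2, the copper pump that loads Fet3 in the secretory pathway, read 1306 and 1155 on AOX arrays, against 459.5 and 481 on control arrays, a rise of 1.35 (SE 0.09). For each of these genes both AOX arrays lay above both control arrays, as they did for 28.7% of all probe sets. ATX1, the chaperone that hands copper to Ccc2, differed by 0.37 (SE 0.10; adjusted p = 0.16) and was not called.

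Among the reductase genes, FRE5 was at least 3.81-fold higher in AOX, at 192 and 193 on AOX arrays against 15.2 and 12.1 on control arrays, where it was not well above background. FRE3, a siderophore reductase gene, rose by 1.23 (SE 0.08), FRE6, whose product acts on the vacuole, by 0.75 (SE 0.08), FRE1 by 0.72 (SE 0.05) and FRE2 by 0.45 (SE 0.05). FRE1 and FRE2 encode the main surface reductases. FRE4 differed by -0.36 (SE 0.09; adjusted p = 0.14), with AOX arrays at 31.8 and 31.4 and control arrays at 50.8 and 45.9, close to background. The low-affinity transporter gene FET4 differed by -0.18 (SE 0.07; adjusted p = 0.29). The vacuolar homologs of the oxidase and permease, FET5 at 0.29 and FTH1 at 0.33, were not called (limma adjusted p = 0.083 and 0.069). Without any 1 AOX or control array, 6 of the 8 calls were made, those of FRE2 and FRE6 being lost, and 10 were made without either NOX array. The difference of FRE5 ranged from 1.73 with a pseudocount of 64 to 3.77 with a pseudocount of 1, since its control values lie near 0.

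FRE3, FIT2, FIT3 and FRE5 lie in a row in the gene table, with only YOR381W-A between FRE3 and FIT2. Along this row the differences were 1.23 for FRE3, 0.26 for YOR381W-A, 4.17 for FIT2, 3.54 for FIT3 and 2.83 for FRE5. YOR381W-A was not called (adjusted p = 0.637). The genes on the flanks were not called either, RDR1 at 0.01 (adjusted p = 0.963) and YOR385W at 0.19 (adjusted p = 0.172).

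**Figure D2:**
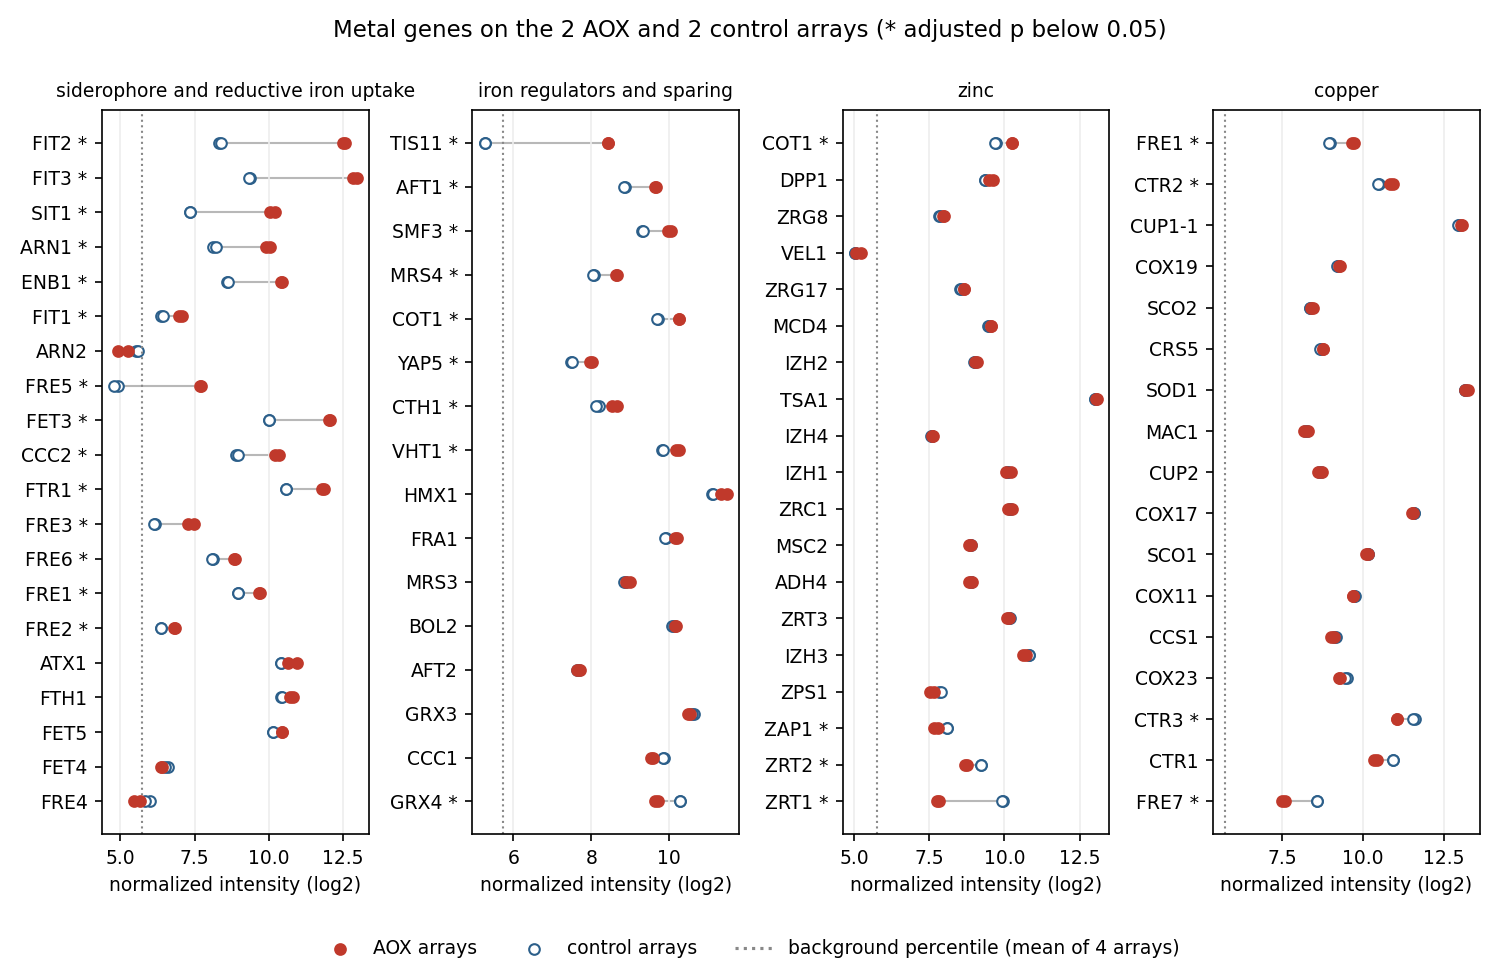
Log2 normalized intensity of each metal gene on the 2 AOX arrays (filled) and the 2 control arrays (open), with the dotted line at the background percentile and an asterisk on genes that limma called. The AOX points lie right of the control points in most of the iron uptake panel, whereas in the zinc panel they lie far to the left for ZRT1 alone.

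Genes that control or spare iron rose in part. Of 16 measured, 8 rose and 1 fell, against 2.55% and 1.04% of all probe sets, with a median of 0.35. TIS11 encodes an RNA-binding protein that destroys transcripts of iron-using proteins when iron is scarce. It read 328 and 333 on AOX arrays, against 24.2 and 24.6 on control arrays, where it was not well above background, and was at least 6.32-fold higher in AOX. Its paralog CTH1 rose by 0.43 (SE 0.07), at 357 and 386 on AOX arrays against 279 and 262 on control arrays. AFT1, the gene of the activator itself, read 779 and 799 on AOX arrays, against 451 and 446 on control arrays, and rose by 0.79 (SE 0.05; limma adjusted p = 0.00104). Its paralog AFT2 differed by 0.01, with an interval of -0.27 to 0.29.

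The other members of the list, among them genes of transport within the cell, followed the same split. SMF3, which moves iron out of the vacuole, rose by 0.69 (SE 0.10), the mitochondrial iron carrier gene MRS4 by 0.58 (SE 0.06) and the vacuolar cobalt and zinc transporter gene COT1 by 0.54 (SE 0.04). The biotin transporter gene VHT1 rose by 0.39 (SE 0.05) and YAP5, whose product senses high iron, by 0.49 (SE 0.05). The carrier gene MRS3, the paralog of MRS4, differed by 0.08, with an interval of -0.08 to 0.24. CCC1, which brings iron into the vacuole, differed by -0.29 (SE 0.05; adjusted p = 0.058), and the heme oxygenase gene HMX1 by 0.30 (SE 0.08; adjusted p = 0.17). GRX4, a glutaredoxin gene of the pathway that switches Aft1 off, was the member that fell, by 0.60 on the log2 scale (SE 0.07). The other genes of that switch were flat, GRX3 at -0.12, FRA1 at 0.27 and BOL2 at 0.07. Only the calls of TIS11 and AFT1 were made without control replicate 1 and without control replicate 2, and 4 members were called as higher without either AOX array.

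Genes that use iron, as opposed to those that bring it in, were mostly flat, at a share near or below the 91.2% of all probe sets. Of 25 genes of iron-sulfur cluster assembly, 23 were flat (92%) and the median was -0.05. ISU2, 1 of a pair of scaffold genes, rose by 0.70 (SE 0.06), at 762 and 778 on AOX arrays against 467 and 465 on control arrays. Its partner ISU1 differed by 0.07 (interval -0.18 to 0.32). The call of ISU2 was lost without either control array, at an adjusted p of up to 0.0577. The frataxin gene YFH1 had no clear value, at 1426 and 953 on AOX arrays and 1591 and 1567 on control arrays. Of 23 genes of iron enzymes 21 were flat (91.3%). Limma called only CTT1 higher and only CTA1 lower, both catalase genes, while it called 3.58% of all probe sets. Among the flat ones were the aconitase gene ACO1 (-0.11), the succinate dehydrogenase gene SDH2 (-0.05) and the Rieske protein gene RIP1 (0.00). Of 14 genes of heme synthesis and breakdown limma called 0 (3 at an unadjusted p below 0.05), and 12 were flat (85.7%).

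Zinc genes went the other way, through 1 strong member. ZRT1, the high-affinity zinc importer gene, read 209.7 and 203 on AOX arrays, against 967 and 954 on control arrays, a 4.42-fold higher level in control. It had the largest fall of any probe set tested, by 2.14 on the log2 scale (SE 0.08; limma adjusted p = 0.000229). The low-affinity importer gene ZRT2 fell by 0.49 (SE 0.06), at 400.5 and 417 on AOX arrays against 582 and 576 on control arrays. ZAP1, the gene of the activator, fell by 0.35 (SE 0.06), at 188 and 207 on AOX arrays against 253 and 258 on control arrays. The remaining known targets of Zap1 were flat or unresolved. ZRT3, the exporter of the vacuole, differed by -0.07, ZRC1, its importer, by 0.00, and ADH4, an alcohol dehydrogenase gene, by -0.01, with intervals inside -0.5 to 0.5. ZPS1, a cell wall protein gene, differed by -0.29 (interval -0.76 to 0.19). In all, 3 of 19 genes fell, COT1 alone rose and 14 were flat (73.7%), with a median of 0.03. The shares over all probe sets were 1.04% lower, 2.55% higher and 91.2% flat. The call of ZRT1 was made in each of the alternatives, while without any 1 AOX or control array it was the only fall called.

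Copper genes split too. FRE7, a reductase gene of the copper response, read 177 and 166 on AOX arrays, against 360.1 and 373 on control arrays, and fell by 1.02 (SE 0.05; limma adjusted p = 0.000517). CTR3, a high-affinity copper importer gene, fell by 0.51 (SE 0.05), at 2189 and 2089 on AOX arrays against 3102 and 2997 on control arrays. CTR1, the other such importer gene, read 1296 and 1389.9 on AOX arrays, against 1943 and 1978 on control arrays. Both AOX arrays lay below both control arrays, as they did for 29.4% of all probe sets, and its difference of -0.54 (SE 0.11) missed the threshold (adjusted p = 0.075). The vacuolar copper exporter gene CTR2 rose by 0.39 (SE 0.05), and FRE1 rose as given above. The activator gene MAC1 (0.02), the metallothionein gene CUP1-1 (0.08) and the superoxide dismutase gene SOD1 (0.04) were flat. Of 17 measured genes 2 rose, 2 fell and 12 were flat (70.6%), against 2.55%, 1.04% and 91.2% of all probe sets. The calls of FRE1 and FRE7 were made without any 1 AOX or control array, those of CTR2 and CTR3 in none of these fits. In manganese and phosphate transport 1 of 23 genes was called, a share near the 3.58% of all probe sets. It was the phosphate importer gene PHO89, which fell by 0.51 (SE 0.08). That call was lost without any 1 AOX or control array.

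Stress genes rose as a broad, moderate group. Yeast turns on the general stress response through Msn2 and Msn4, which bind the same short element in its promoters. Of 40 measured members 22 rose, none fell and 15 were flat (37.5%), with a median of 0.39. Of all probe sets 2.55% rose, 1.04% fell and 91.2% were flat. YGP1, a secreted glycoprotein gene, read 1978 and 1754 on AOX arrays, against 737 and 741 on control arrays, and rose by 1.30 (SE 0.09). HSP12, a membrane-stabilising protein gene, read 4560.0 and 4074 on AOX arrays, against 2061 and 2057 on control arrays, a rise of 1.07 (SE 0.08). HSP26, a small heat shock protein gene, read 2601 and 2505 on AOX arrays, against 1473 and 1456 on control arrays, a rise of 0.80 (SE 0.04). Both AOX arrays lay above both control arrays in these genes, as they did for 28.7% of all probe sets. PHM7 and DDR2 each rose by 0.91, the catalase gene CTT1 by 0.63 (SE 0.09) and the disaggregase gene HSP104 by 0.46 (SE 0.06). The activator gene MSN4 rose by 0.35 (SE 0.06) while MSN2 differed by 0.14. The heat shock genes SSA4 (0.06) and SSA3 (-0.19) and the polyubiquitin gene UBI4 (0.02) were not called. Against 22 rises with all arrays, 11 were called when AOX replicate 1 was left out, 8 when AOX replicate 2 was, 8 and 7 when control replicates 1 and 2 were, and 25 without either NOX array.

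Among storage carbohydrate genes, some rose and most were flat, but a smaller share than over all probe sets. Of all probe sets 2.55% rose and 91.2% were flat. PGM2, the phosphoglucomutase gene, read 1066 and 1125 on AOX arrays, against 592 and 599 on control arrays, and rose by 0.86 (SE 0.05). Of 10 trehalose genes 3 rose, none fell and 7 were flat (70%). Those that rose were PGM2 together with the synthase subunit genes TSL1 (0.62) and TPS2 (0.29). TPS1, the synthase subunit gene, differed by 0.34 (SE 0.13; adjusted p = 0.33). Of 12 glycogen genes 4 rose, none fell and 9 were flat (75%), 1 of which was also called. Those that rose were the phosphorylase gene GPH1 (0.66), the synthase gene GSY2 (0.54), the branching enzyme gene GLC3 (0.49) and the debranching enzyme gene GDB1 (0.28). The 4 include genes for making and for breaking glycogen. UGP1, which makes the UDP-glucose that both routes use, differed by -0.01, and GLG2, a glycogenin gene, by -0.13. No glycogen gene was called without any 1 AOX or control array, and 1 or 2 trehalose genes were, with PGM2 called in each fit.

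Folding genes moved little, while a few genes of oxidative defence were called. Of 28 chaperone genes outside the stress list, all 28 were flat, with differences of -0.10 to 0.16, and limma called 0 (0 at an unadjusted p below 0.05). SSB1, a ribosome-bound chaperone gene, differed by 0.03 and the mitochondrial chaperonin gene HSP60 by -0.10. Of 30 genes of superoxide and peroxide defence 25 were flat (83.3%, against 91.2% of all probe sets). In this list 2 genes rose and 1 fell, against 2.55% and 1.04% of all probe sets. CTT1 and the thiol peroxidase gene AHP1 (0.48) rose, and CTA1, the catalase gene of peroxisomes, fell by 1.06 (SE 0.10). Without any 1 AOX or control array AHP1 was not called, and CTT1 held only without control replicate 1 and CTA1 only without AOX replicate 2. AHP1 and CTT1 were not called with the replicate block either (adjusted p of up to 0.188 and 0.176 over the alternatives). The mitochondrial superoxide dismutase gene SOD2 differed by 0.04 (interval -0.08 to 0.16).

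Falls in carbon metabolism lay in some lists of genes that glucose is known to repress and not in others. In the list of other sugar use and catabolite repression 24 of 26 genes were flat (92.3%, against 91.2% of all probe sets). The list median was 0.0054. The invertase gene SUC2 differed by 0.0033 and the maltase gene MAL32 by 0.06. Limma called STD1 higher and MAL31 lower there, and neither without any 1 AOX or control array. ADH2, the alcohol dehydrogenase gene that oxidises ethanol, read 311 and 277 on AOX arrays, against 765 and 742 on control arrays, and fell by 1.31 (SE 0.08; limma adjusted p = 0.00121). RGI2, a gene of respiratory growth, read 268 and 265 on AOX arrays, against 653 and 669.9 on control arrays, and fell by 1.26 (SE 0.05). In both genes the AOX arrays lay well below the control arrays.

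In the glyoxylate cycle and gluconeogenesis 8 of 12 genes fell and none rose, against 1.04% and 2.55% of all probe sets. The list median was -0.50. PCK1, the phosphoenolpyruvate carboxykinase gene, read 584 and 660.1 on AOX arrays, against 1452 and 1443 on control arrays, and fell by 1.20 (SE 0.07). The fructose bisphosphatase gene FBP1 fell by 0.67 (SE 0.09), at 354 and 345 on AOX arrays against 559.6 and 567 on control arrays. MLS1, the malate synthase gene, fell by 0.73 (SE 0.05), and SFC1, the carrier gene that exchanges succinate for fumarate, by 0.85 (SE 0.06). ICL1, the isocitrate lyase gene, fell by only 0.29 (SE 0.05), at 1096 and 1129 on AOX arrays against 1364 and 1397 on control arrays. Its mitochondrial paralog ICL2, a gene of the methylcitrate cycle, fell by 0.80 (SE 0.07), the isocitrate dehydrogenase gene IDP2 by 0.53 (SE 0.06) and the lactate importer gene JEN1 by 0.42 (SE 0.05). ACS1, the acetyl-CoA synthetase gene, differed by -0.39 (SE 0.08; adjusted p = 0.087), CIT2 by -0.11 and MDH2 by 0.13. The calls of PCK1, MLS1 and SFC1 were made without any 1 AOX or control array, and the count of falls was 3 without either control array, 5 without AOX replicate 1 and 4 without AOX replicate 2.

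Of 24 beta-oxidation and carnitine genes 8 fell, none rose and 13 were flat (54.2%), with a median of -0.29. Among all probe sets 1.04% fell, 2.55% rose and 91.2% were flat. POX1, the acyl-CoA oxidase gene that starts each round, read 477 and 498 on AOX arrays, against 917 and 901 on control arrays, and fell by 0.86 (SE 0.06). FOX2, the gene of the next enzyme, read 773 and 829 on AOX arrays, against 1387 and 1362 on control arrays, and fell by 0.77 (SE 0.05). The acyl-CoA synthetase gene FAA2 fell by 0.60 (SE 0.05), the peroxisomal transporter gene PXA1 by 0.63 (SE 0.07), the carnitine carrier gene CRC1 by 0.49 (SE 0.07) and the isomerase gene ECI1 by 0.36 (SE 0.06). POT1, the gene of the last enzyme, was not called, and FAA4, another acyl-CoA synthetase gene, differed by 0.01. The carnitine acetyltransferase gene CAT2 read 1699 and 708 on AOX arrays, against 1448 and 1536 on control arrays, so its AOX arrays differed from each other more than from the control. The count of falls was 14 without either NOX array, 4 without either AOX array, 2 without control replicate 1 and 3 without control replicate 2.

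**Figure D3:**
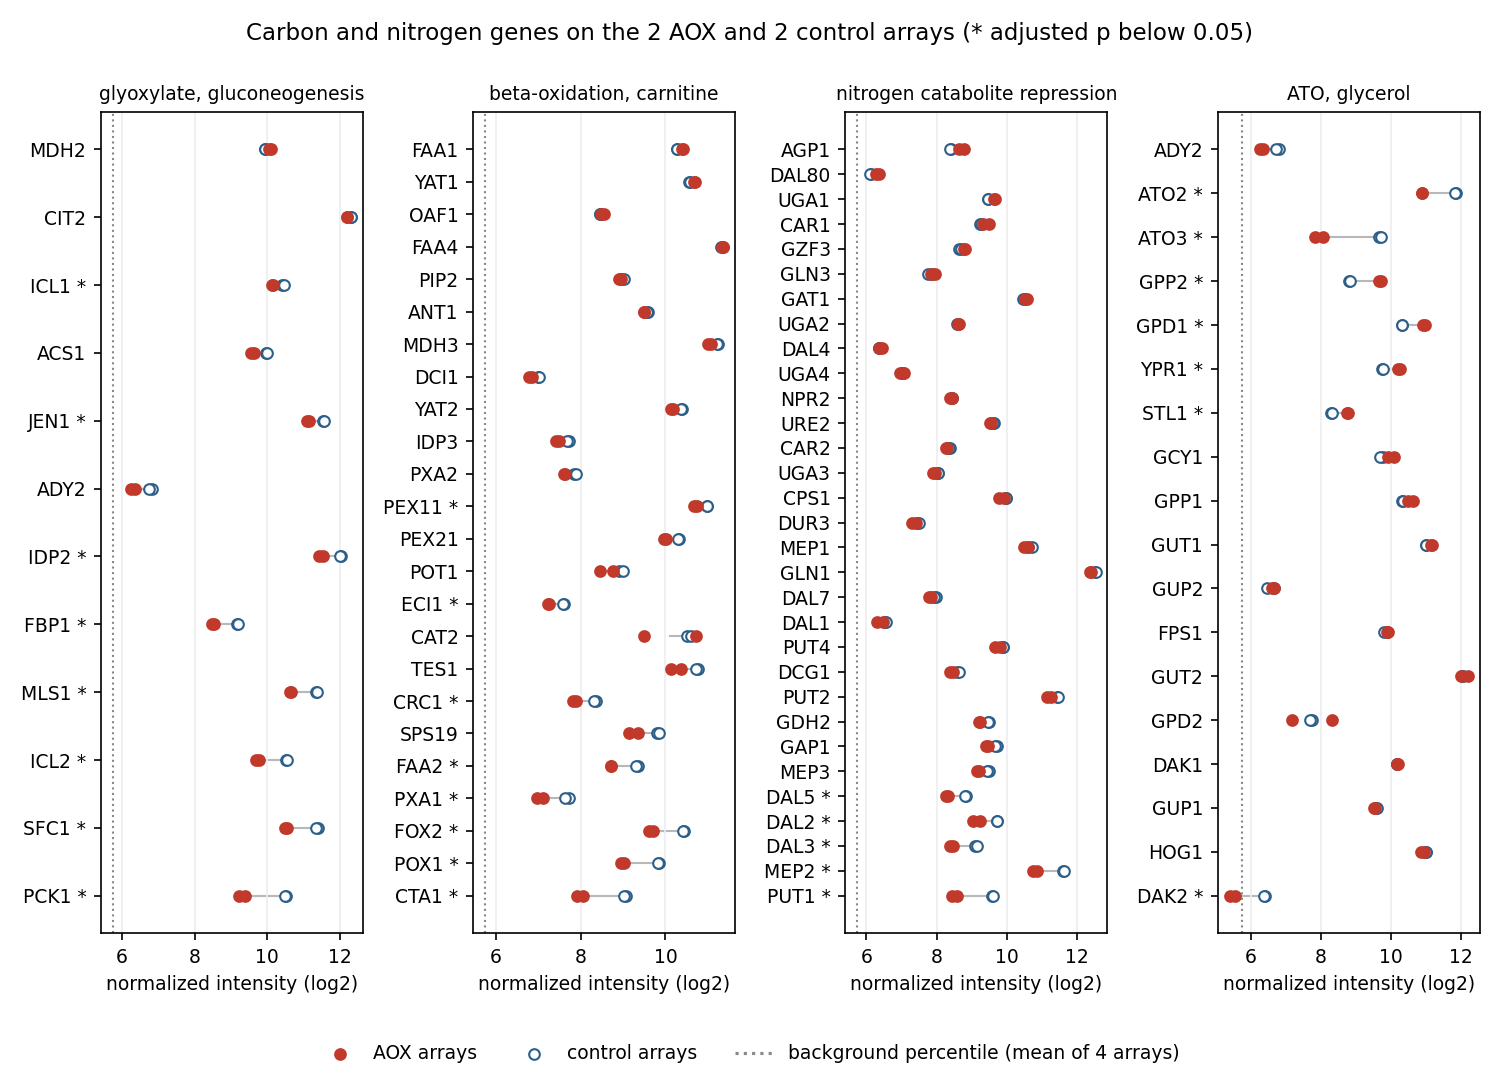
Log2 normalized intensity of each gene on the 2 AOX arrays (filled) and the 2 control arrays (open) in 4 gene groups, with an asterisk on genes that limma called. The AOX points lie left of the control points for called genes of the first 3 groups, by 1.20 for PCK1 and 1.10 for PUT1, and right of them for GPP2 and GPD1.

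Central carbon genes outside these groups were largely flat, as were 91.2% of all probe sets. Of 15 TCA cycle genes all 15 were flat, with differences of -0.19 to 0.04, and limma called 0 (1 at an unadjusted p below 0.05). CIT1, the citrate synthase gene, read 9174 and 9215 on AOX arrays and 9638 and 9627 on control arrays. In glycolysis 2 of 18 genes rose, against 2.55% of all probe sets, and 15 were flat (83.3%). Those that rose were ENO1 (0.54) and TDH1 (0.51). The bright genes PGK1 (0.07), TPI1 (0.05), CDC19 (0.09) and TDH3 (0.00) were among the flat ones. Intensities of that height lie near the top of the array's range, and whether changes there are compressed was not tested. Quantile normalization gives equal ranks equal values, so the 0.00 of TDH3 reflects its rank alone. Over the alternatives its difference lay between 0 and 0.0234. The 2 glycolytic calls were lost without either control array. In the steps from pyruvate to ethanol and acetate 31 of 34 genes were flat, among them PDC1 (0.03), ADH1 (-0.02) and ALD6 (-0.03). Apart from ADH2, the lactate dehydrogenase genes CYB2 (-0.30) and DLD2 (-0.31) fell and the stress gene ALD3 (0.52) rose. Without any 1 AOX or control array ADH2 alone was called in this list, and CYB2 and DLD2 were also lost under other normalizations and with the replicate block.

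In the pentose phosphate list TKL2, a transketolase gene of the stress response, stood apart. It read 457 and 449.9 on AOX arrays, against 114 and 115 on control arrays, and rose by 1.83 (SE 0.09, 3.55-fold). SOL4, a phosphogluconolactonase gene, rose by 0.81 (SE 0.10) and the transaldolase paralog NQM1 by 0.33 (SE 0.05), while IDP2, given above, was the list's fall. Their main-pathway partners ZWF1 (0.01), GND1 (0.01), TKL1 (-0.02) and TAL1 (0.06) were flat. Of the 19 measured genes 16 were flat (84.2%), against 91.2% of all probe sets. TKL2 was the only rise called without any 1 AOX or control array, with an adjusted p of up to 0.121 for SOL4 and 0.398 for NQM1.

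In the hexose transport list 13 of 18 genes were above background on both AOX or both control arrays. Of the 18, 4 rose and 11 were flat (61.1%), against 2.55% and 91.2% of all probe sets. The 4 were HXT13, HXT17, HXT4 and STL1, a related glycerol importer gene that is also in the glycerol list. HXT13 read 74.0 and 70.0 on AOX arrays, against 7.1 and 9.2 on control arrays, where it was not well above background, and was at least 1.59-fold higher by this probe set. A second probe set gave at least 1.71-fold. HXT17 was at least 2.52-fold higher by its s-type probe set, which may bind close relatives. Its second probe set gave at least 1.09-fold, and that call was lost without control replicate 1 and without AOX replicate 2. These genes are near-identical to others of the family, so their values are uncertain. HXT4, a transporter gene of intermediate affinity, rose by 0.53 (SE 0.05), at 530.4 and 517 on AOX arrays against 359 and 356 on control arrays. The calls of HXT4 and STL1 were lost without any 1 AOX or control array. The high-affinity gene HXT7 was flat at -0.03. HXT1, the low-affinity gene that high glucose induces, was not well above background on any of the 4 arrays.

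Glycerol formation takes up surplus cytosolic NADH. GPP2, a glycerol phosphatase gene, read 842 and 803 on AOX arrays, against 429 and 441 on control arrays, and rose by 0.89 (SE 0.06). GPD1, the glycerol 3-phosphate dehydrogenase gene, read 1974 and 2012 on AOX arrays, against 1269.8 and 1283 on control arrays, and rose by 0.62 (SE 0.05). The reductase gene YPR1 (0.48) and STL1 (0.45) rose as well. The dihydroxyacetone kinase gene DAK2 was at least 1.61-fold lower in AOX, at 29.9 and 27.9 on AOX arrays, not well above background, against 71.7 and 70.6 on control arrays. GPD2, the paralog of GPD1, read 303 and 128 on AOX arrays, against 198 and 193 on control arrays, and its difference of 0.02 (SE 0.39) was not resolved. Of 15 measured genes 4 rose, 1 fell and 8 were flat (53.3%), against 2.55%, 1.04% and 91.2% of all probe sets. The rises numbered 1 without either control array, 3 without AOX replicate 1 and 2 without AOX replicate 2, with GPP2 among them each time.

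The route that AOX draws on and bypasses stayed close to control at the level of mRNA. Of 20 nuclear genes of complexes III and IV 18 were flat (90%, against 91.2% of all probe sets), with a median of -0.04. COX4 differed by 0.02, CYC1, the main cytochrome c gene, by -0.03 and COR1 by -0.08. CYC7, the second cytochrome c gene, which low oxygen and stress induce, read 339.7 and 331 on AOX arrays, against 198 and 199 on control arrays. It rose by 0.70 (SE 0.05; limma adjusted p = 0.00121) and was called at the 0.05 threshold in each of 17 alternative settings. Of 16 ATP synthase genes all 16 were flat (differences -0.18 to 0.09), and so were all 11 genes of ubiquinone synthesis (-0.07 to 0.09). Limma called 0 in both, with 1 and 0 at an unadjusted p below 0.05.

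Genes of NADH oxidation at the inner membrane, which feed ubiquinone, were not called. NDI1, the internal NADH dehydrogenase gene, read 2926 and 2851 on AOX arrays, against 3424 and 3398 on control arrays. Its difference of -0.25 (SE 0.05; adjusted p = 0.086) lay inside the flat limits, although both AOX arrays lay below both control arrays. The external dehydrogenase genes NDE1 and NDE2 differed by -0.08 and 0.38 (SE 0.12; adjusted p = 0.23), and GUT2, the glycerol 3-phosphate dehydrogenase gene of mitochondria, by 0.05. Of 20 genes of this list GDH3, a glutamate dehydrogenase gene, alone was called, against 3.58% of all probe sets. It fell by 0.95 (SE 0.14). That call was lost without any 1 AOX or control array, at an adjusted p of up to 0.219. HAP4, the activator gene of respiratory genes, differed by -0.11 (interval -0.26 to 0.05).

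Nitrogen genes fell in part. Poor nitrogen sources relieve a repression that holds down permeases and catabolic enzymes. Of 31 such genes 5 fell, none rose and 24 were flat (77.4%), with a median of -0.12. Over all probe sets 1.04% fell, 2.55% rose and 91.2% were flat. PUT1, the proline oxidase gene, read 329.6 and 365 on AOX arrays, against 750.1 and 770.1 on control arrays, and fell by 1.10 (SE 0.11; limma adjusted p = 0.00438). MEP2, the high-affinity ammonium permease gene, read 1893 and 1716 on AOX arrays, against 3107 and 3124 on control arrays, and fell by 0.81 (SE 0.08). The allantoin genes DAL3 (-0.70), DAL2 (-0.59) and DAL5 (-0.52) fell, but DAL1 (-0.17), DAL7 (-0.15) and DAL4 (0.03) were not called. Activator and repressor genes GLN3 (0.08), GAT1 (0.06), DAL80 (0.19), GZF3 (0.13) and URE2 (-0.08) were not called. GAP1, the general amino acid permease gene, differed by -0.27 (SE 0.07; adjusted p = 0.15). DAL3 alone was called without either control array, 3 genes were without AOX replicate 1, 2 without AOX replicate 2 and 8 without either NOX array.

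The ATO family, plasma membrane proteins linked to acetate uptake and ammonium export, fell more. ATO3 read 252 and 216 on AOX arrays, against 805 and 833 on control arrays, and fell by 1.74 (SE 0.14; limma adjusted p = 0.00251). ATO2 read 1932 and 1899 on AOX arrays, against 3801 and 3667 on control arrays, and fell by 0.97 (SE 0.05). ADY2, the acetate transporter gene of the family, differed by -0.48 (SE 0.09; adjusted p = 0.058). Both AOX arrays lay below both control arrays in each of the 3 genes, as they did for 29.4% of all probe sets.

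Of 29 amino acid and peptide permease genes 3 rose and 2 fell, against 2.55% and 1.04% of all probe sets. No gene of amino acid biosynthesis was called. The branched-chain permease gene BAP3 was at least 1.34-fold higher, and OPT2, an oligopeptide transporter gene, rose by 0.86 (SE 0.05), at 161 and 149 on AOX arrays against 80.1 and 79.0 on control arrays. SAM3 rose by 0.27, and TAT1 fell by 0.33, while 23 of 29 permease genes were flat (79.3%, against 91.2% of all probe sets). Of these 4 calls those of SAM3 and TAT1 were lost without any 1 AOX or control array, as was that of the other permease gene that fell, DAL5. The transaminase gene ARO9 fell by 0.98 (SE 0.11; adjusted p of up to 0.0768 over the alternatives) and EEB1, an ethyl ester synthase gene, rose by 1.01 (SE 0.06). Of 59 genes of amino acid biosynthesis limma called 0 (10 at an unadjusted p below 0.05), and 57 were flat. GDH1, the NADPH-dependent glutamate dehydrogenase gene, differed by -0.04, and GCN4, the activator gene of the pathway, by 0.01.

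**Figure D4:**
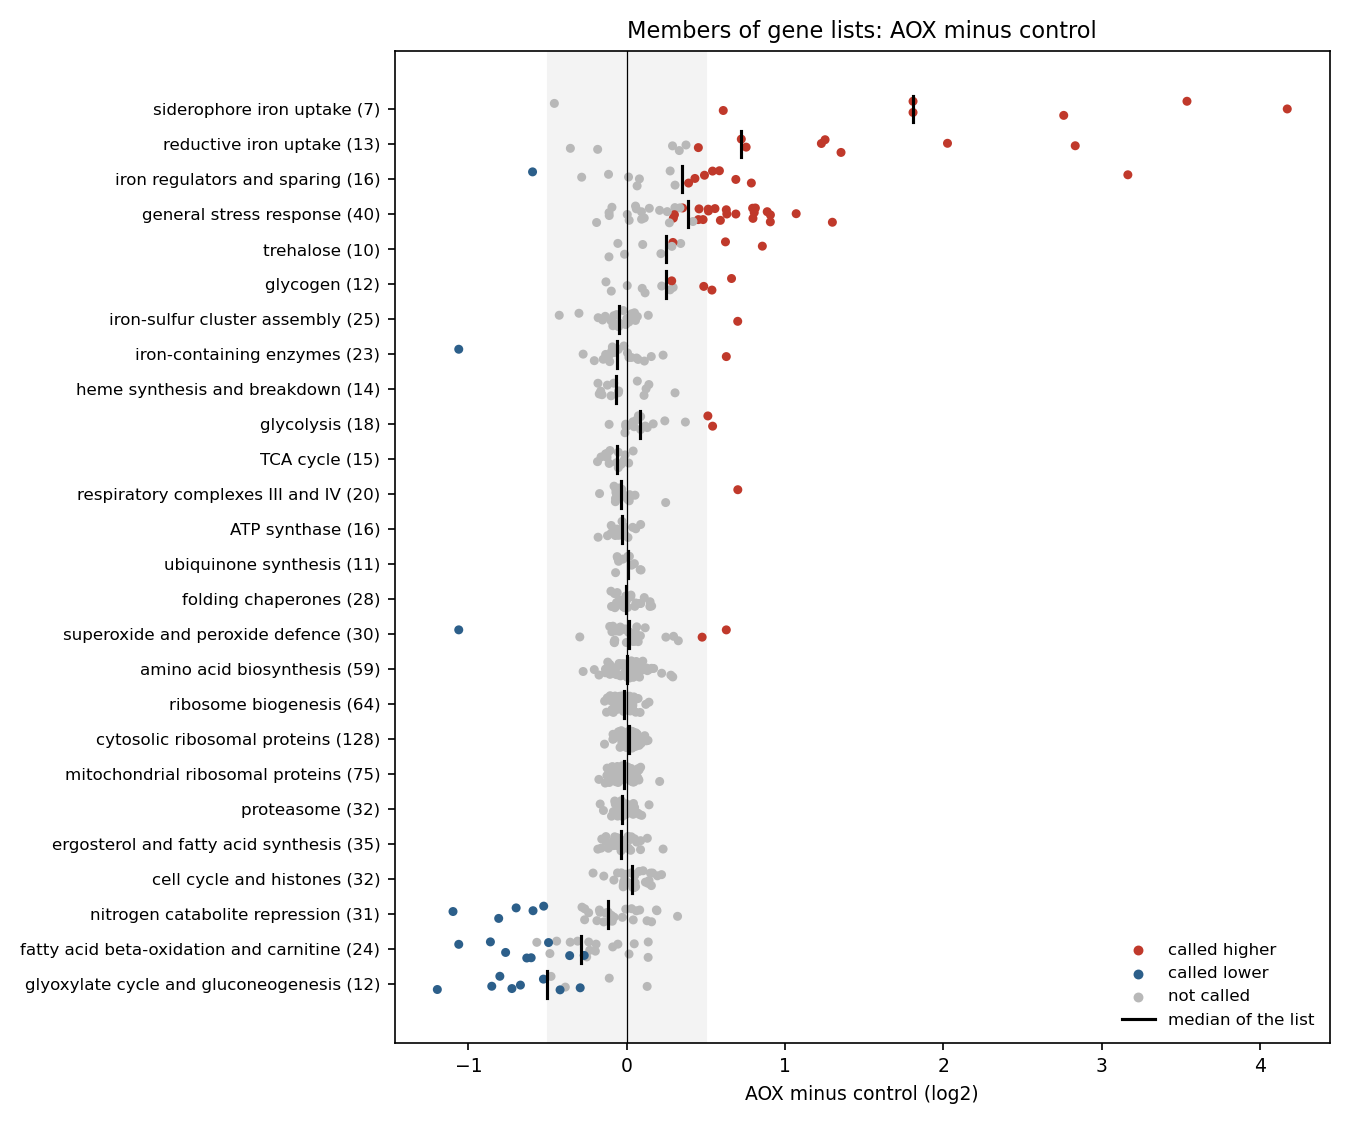
AOX minus control log2 difference of each measured member in 26 gene lists, with the number of genes in brackets, a black bar at the list median and the flat limits of -0.5 to 0.5 shaded. Siderophore and reductive iron uptake have medians of 1.81 and 0.72, glyoxylate and gluconeogenesis -0.50, while ribosomal, proteasome and ATP synthase genes sit inside the shaded band.

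Genes of growth and housekeeping stayed flat. All 128 cytosolic ribosomal protein genes were flat, with differences of -0.14 to 0.13 and a median of 0.01, and limma called 0 (2 at an unadjusted p below 0.05). Of 75 mitochondrial ribosomal protein genes 74 were flat, and of 64 ribosome biogenesis genes 62, with 0 called in both (2 and 1 at an unadjusted p below 0.05). All 32 proteasome genes, all 32 cell cycle and histone genes and all 35 genes of ergosterol and fatty acid synthesis were flat, and limma called 0 in each (0, 2 and 5 at an unadjusted p below 0.05). Of 30 mitochondrial import genes 29 were flat and 0 were called (1 at an unadjusted p below 0.05). The common reference gene ACT1 read 9830.4 and 9503 on AOX arrays and 9828 and 9978 on control arrays, a difference of -0.01 (interval -0.13 to 0.10). The share of flat probe sets ranged from 81.1% in the dimmest of 4 equal-sized level classes to 95.1%, so that part of the share follows signal level. Among the 5197 probe sets above background on all 4 arrays 4844 were flat (93.2%).

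The plasmid marker was lower in AOX. URA3, which serves uracil synthesis, read 6617 and 6269 on AOX arrays, against 10310.5 and 10511 on control arrays, and fell by 0.68 (SE 0.06; limma adjusted p = 0.00246, and 0.0548 without control replicate 2). URA1, another gene of the pathway, rose by 0.59 (SE 0.07), a call lost without any 1 AOX or control array. The probe set of URA3 cannot tell plasmid from chromosomal transcript.

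Set directly against the other oxidase strain, NOX, the same arrays gave further differences. Limma called 220 probe sets as higher in AOX than in NOX (4%) and 241 as lower (4.38%), 461 in all (8.38%), in a comparison that shares the AOX arrays with the one above. Among siderophore genes 6 of 7 were higher than in NOX and none lower, and among reductive iron genes 11 of 13 were higher and 1 lower. FIT2 was higher than in NOX by 3.80 (SE 0.10) and AFT1 by 0.63. Of 12 glyoxylate and gluconeogenesis genes 10 were lower than in NOX and ICL1 (0.36) was higher. Beta-oxidation had 14 of 24 genes lower than in NOX and none higher, and nitrogen catabolite repression 8 of 31 lower and none higher. The stress list went both ways, with 13 of 40 genes higher than in NOX and 6 lower. HSP26, higher in AOX than in control by 0.80, was lower than in NOX by 0.76 (log2 -0.76). CYC7 was higher in AOX than in NOX by 0.55.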

How the data were processed

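Biotin-labelled RNA was hybridised to 6 arrays, per the labels. The table that the authors deposited holds a linear intensity per probe set and array. The steps by which probes were summarised and scaled are not given in the sources used here. Strains came from the titles. Of 10928 probe sets, 5498 had an S. cerevisiae gene with 1 symbol (5449 genes) and were tested. Another 1747 belong to another organism and gave the background, 3470 were unnamed and 213 were controls. Intensities were taken as log2(value + 16), which understates changes of dim genes, and quantile normalized over all probe sets. Limma 3.58.1 in R 4.3.3 fitted 1 mean per strain over all 6 arrays (lmFit and eBayes, 3 residual and 2.77 prior degrees of freedom). With 2 against 2 arrays no exact permutation test of 1 gene can reach 0.05. The number of arrays limits the precision. A gene below background on both arrays of a strain has only a bound there, and its fold was computed against the background percentile of those arrays.

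The 52 gene lists hold 1230 measured genes, 1 probe set a gene, the brightest. The members and lists were chosen with earlier results of these data known. Genes were named by rule: the 15 largest rises and 15 largest falls called, up to 6 called members of each list, all metal genes, a fixed set of plasmid, redox, fermentation and glycerol genes, and the 3 brightest flat members of flat lists. Other list members were named after their values were seen. On simulated data with AOX minus control changes among 5498 probe sets the fit recovered 92% of 50 changes of 0.5 log2 and 100% of 50 changes of 1. Of 204 calls there 8 were false. The simulated noise was normal, independent and of equal spread on all arrays, as the fit assumes. The real arrays differed in spread between strains, so these rates may not hold for them. Alternatives were no or other normalization, pseudocounts of 1 and 64, dim probe sets left out, a variance trend, stricter thresholds, fits of 4 arrays, a replicate block and each array left out. Promoter motifs were not analysed here. Gene positions served only to order genes and to find neighbours and overlaps on the same strand.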

Additional observations from a re-analysis of the deposited data

Results flagged for a closer look

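An unnamed probe set, left out of the comparison because no gene was given for it, rose in AOX. It read 131 and 113 on AOX arrays, against 17.4 and 17.4 on control arrays, a log2 difference of 2.07 (SE 0.10; limma adjusted p = 7.98e-05). It was among 6 higher and 5 lower of 3470 unnamed probe sets. Of 1747 probe sets for another organism limma called 0 in either direction. What the probe set measures was not tested. With 2 arrays a strain no array could be compared with the rest of its group for standing apart.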

How the results depend on the processing

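No called probe set changed direction in any setting. At the 0.05 threshold 51 of the 197 calls were made in each of 17 settings, 37 higher and 14 lower, among them FIT2, FIT3, TIS11, SIT1, FET3, FTR1, AFT1, ZRT1, ADH2, PCK1 and ATO3. Limma called 178 to 213 probe sets under other normalizations, pseudocounts, the filter on dim probe sets and the variance trend. With each array left out the calls ranged from 54 to 363, with 39 to 239 higher and 15 to 124 lower. They numbered 58 without control replicate 1, 54 without control replicate 2, 89 without AOX replicate 1, 79 without AOX replicate 2 and 363 without either NOX array. With only the 4 arrays compared 364 were called, 240 higher and 124 lower. At a threshold of 0.01 there were 115 (81 higher, 34 lower) and at 2-fold 32 (24 higher, 8 lower). With limits of -0.25 to 0.25 in place of -0.5 to 0.5, 2809 probe sets were flat.

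Replicate numbers did not pair the arrays. Deviations of same-numbered arrays correlated at -0.60 between AOX and NOX, -0.21 between AOX and control and 0.12 between NOX and control. With a replicate block 124 probe sets were called, 88 higher and 36 lower, all within the 197. With the AOX numbers crossed, a setting chosen after seeing the data, 228 were called. Quantile normalization over S. cerevisiae probe sets alone, also chosen after seeing the data, gave 204. Between AOX and NOX the 461 calls became 195 at 0.01, 65 at 2-fold, 202 with only the 4 arrays compared, 237 with the replicate block and 158 to 1476 with each array left out. The cause of these shifts was not tested. Dim genes limit the folds: FRE5, HXT13, HXT17, NCA3, DAK2, BAP3, GRE1, ALD3 and GAS4 moved by over 1.5 times with the pseudocount.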

Other observations

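Among called genes in none of the lists, all named after their values were seen, some were as large as those of iron uptake. CTL1, an RNA triphosphatase gene, read 1016 and 857 on AOX arrays, against 198 and 207 on control arrays, and rose by 2.10 (SE 0.09). VMR1, a vacuolar transporter gene of multidrug resistance, read 473 and 455 on AOX arrays, against 154.7 and 150.02 on control arrays, and rose by 1.51 (SE 0.07). NCA3, a gene linked to mitochondrial ATP synthase expression, was at least 2.18-fold higher and GTO3, an omega-class glutathione transferase gene, at least 1.24-fold. TMT1, a methyltransferase gene, rose by 0.95 (SE 0.06) and the membrane protein gene YRO2 by 0.99 (SE 0.08). PDR12, the gene of the pump that exports weak acids, fell by 0.75 (SE 0.08), at 1924 and 2072 on AOX arrays against 3371 and 3354 on control arrays. The aquaporin gene AQY2 (-0.63) and YLL053C (-0.72) also fell, but they overlap on the same strand and cannot be told apart.

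Several called genes lie beside another called gene. TIS11 neighbours RKM5, which rose by 0.42, FRE1 neighbours CRR1, which rose by 0.47, and FIT1 neighbours STL1, which rose by 0.45. CTR2 neighbours YHR175W-A (0.42) and GTO3 neighbours GAD1 (0.59). Whether such neighbours share signal was not tested.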
